A study of Oryctolagus cuniculus with 6 samples.

Results

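The genes described here are a set of endothelial surface and matrix genes and leukocyte adhesion molecules: PECAM1, ESAM, MMRN2, VCAM1, ICAM1 and SELE. A probe belonged to the set when its gene name on the array was one of these genes or its description gave that gene's full name. No measured value entered this assignment of probes, but the genes themselves were chosen with earlier results of these data known. By this rule 14 of 43603 probes, from 5 of the 6 genes, were found: 1 for ESAM, 1 for MMRN2, 5 for VCAM1, 1 for ICAM1 and 6 for SELE. PECAM1 had 0 probes and dropped out.

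RNA came from smooth muscle cells of the basilar artery, the vessel at the base of the brain, of female New Zealand White rabbits. In the ligated group both common carotid arteries were tied off to raise basilar flow, and in the sham group the same arteries were exposed and not tied. All animals were killed on day 5 and each group gave 3 arrays. In both groups the vessels were perfused with 0.4 mg/ml elastase and 1 mg/ml collagenase for 45 min, and cells were released by trituration. The labels describe no step that removes the endothelium or sorts the cells, and do not say whether an array holds 1 rabbit or a pool, so p-values here measure only the spread between these arrays.

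Endothelial cells line the vessel and are held together at their junctions by proteins of the immunoglobulin superfamily, among them PECAM1 and ESAM. MMRN2 (multimerin 2) is an endothelial extracellular matrix glycoprotein that binds the surface receptor CLEC14A. E-selectin, the product of SELE, is induced on activated endothelium and lets leukocytes roll, after which ICAM1 and VCAM1 hold them through leukocyte integrins. Interleukin 1 and tumour necrosis factor induce these adhesion molecules, and VCAM1 is also made by activated smooth muscle cells.

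The 60-base probes on which the results turn are shown because each value below is the signal of 1 such sequence. They are printed as the array files give them, and the capitals in a pair of VCAM1 probes mark the 20 bases that both carry.
ESAM A_04_P086502: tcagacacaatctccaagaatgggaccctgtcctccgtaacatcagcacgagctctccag
MMRN2 A_04_P072247: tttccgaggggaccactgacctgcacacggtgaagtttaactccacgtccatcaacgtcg
VCAM1 A_04_P002586: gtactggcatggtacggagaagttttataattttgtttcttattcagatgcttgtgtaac
VCAM1 A_04_P002587: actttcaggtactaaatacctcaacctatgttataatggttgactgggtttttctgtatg
VCAM1 A_04_P004401: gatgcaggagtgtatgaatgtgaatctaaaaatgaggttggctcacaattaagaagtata
VCAM1 A_04_P004402: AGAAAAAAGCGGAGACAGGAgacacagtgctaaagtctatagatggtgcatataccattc
VCAM1 A_04_P004403: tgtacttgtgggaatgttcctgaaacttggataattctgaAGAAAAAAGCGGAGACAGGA
SELE A_04_P002441: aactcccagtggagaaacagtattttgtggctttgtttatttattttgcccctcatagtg
SELE A_04_P002442: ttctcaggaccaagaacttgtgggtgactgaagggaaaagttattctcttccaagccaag
SELE A_04_P066017: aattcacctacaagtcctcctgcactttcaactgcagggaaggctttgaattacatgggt
ICAM1 A_04_P016216: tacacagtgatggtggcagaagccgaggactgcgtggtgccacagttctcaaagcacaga
Fc receptor-like 4-like A_04_P056772: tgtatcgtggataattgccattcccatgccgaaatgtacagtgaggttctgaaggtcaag

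Each description was checked against its gene. The ESAM probe, at chr1:92477046-92477105 on the plus strand of oryCun2, is described as endothelial cell adhesion molecule-like. The MMRN2 probe lies on the minus strand at chr18:8626111-8626170 and is described as multimerin 2. The VCAM1 probes lie on the minus strand of chr13 and carry the VCAM-1 name. Of the SELE probes, also on the minus strand of chr13, 5 are described as selectin E and 1 (A_04_P012613) by the older name endothelial leukocyte adhesion molecule I. The ICAM1 probe was designed on a partial coding sequence and has no position in the files. As a further check, the neighbours of each mapped probe were set against gene order in the mOryCun1.1 rabbit gene table. Of the named genes within 500 kb of the probe, 10 of 11 for ESAM, 10 of 10 for MMRN2, 6 of 6 for VCAM1 and 5 of 5 for SELE also neighbour that gene in the table. Whether a probe falls in a coding exon or a UTR was not analysed here.

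Values are log2 of the processed signal minus the array's 75th percentile, so 0 is the level of the 75th percentile probe of that array. The signal at that percentile ranged from 207 to 224 in sham and from 157 to 251 in ligated, and 58.7% to 63.7% of probes were well above background. Tested probes were those well above background on 3 or more of the 6 arrays, and a probe's difference is ligated minus sham from limma, with p-values adjusted over all 27384 tested probes (Benjamini-Hochberg, two-sided, threshold 0.05). The sham arrays lay on 1 slide and the ligated arrays on the other, so the slide and the ligation cannot be told apart. Sham 2 and sham 3 lay much closer together than any other pair of arrays (robust SD of their log2 difference 0.216, against 0.469 to 0.805), and counts are given also with these arrays averaged to 1 sample. After scaling, 5 of 10 spike-in controls were lower on every ligated array and their median difference was -0.81, so differences here are relative to each array's 75th percentile.

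Of the 14 probes, 7 were tested (ESAM, MMRN2 and all 5 of VCAM1), each well above background on all 6 arrays, and 0 passed the threshold. Among all tested probes 8.37% passed (5.72% higher and 2.65% lower in ligated), or 2.17% with sham 2 and sham 3 averaged. Centring each array on its median instead moved the median difference of all tested probes from 0.01 to -0.19 and the share of higher values among called probes from 68.4% to 52.2%, with ESAM at -1.11, MMRN2 at 0.48 and VCAM1 at 0.56, so these 3 kept their direction. At an unadjusted p under 0.05, 1 of the 7 passed in limma, a VCAM1 probe, as did 7495 of all 27384 tested probes. The ligated mean was the higher for 6 of the 7 and the lower for ESAM. The 7 untested probes were those of ICAM1 and SELE, which were read above background on at most 2 arrays. RNA was taken from bulk preparations, in which fewer cells of a type and less RNA per cell cannot be told apart.

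**Figure D1:**
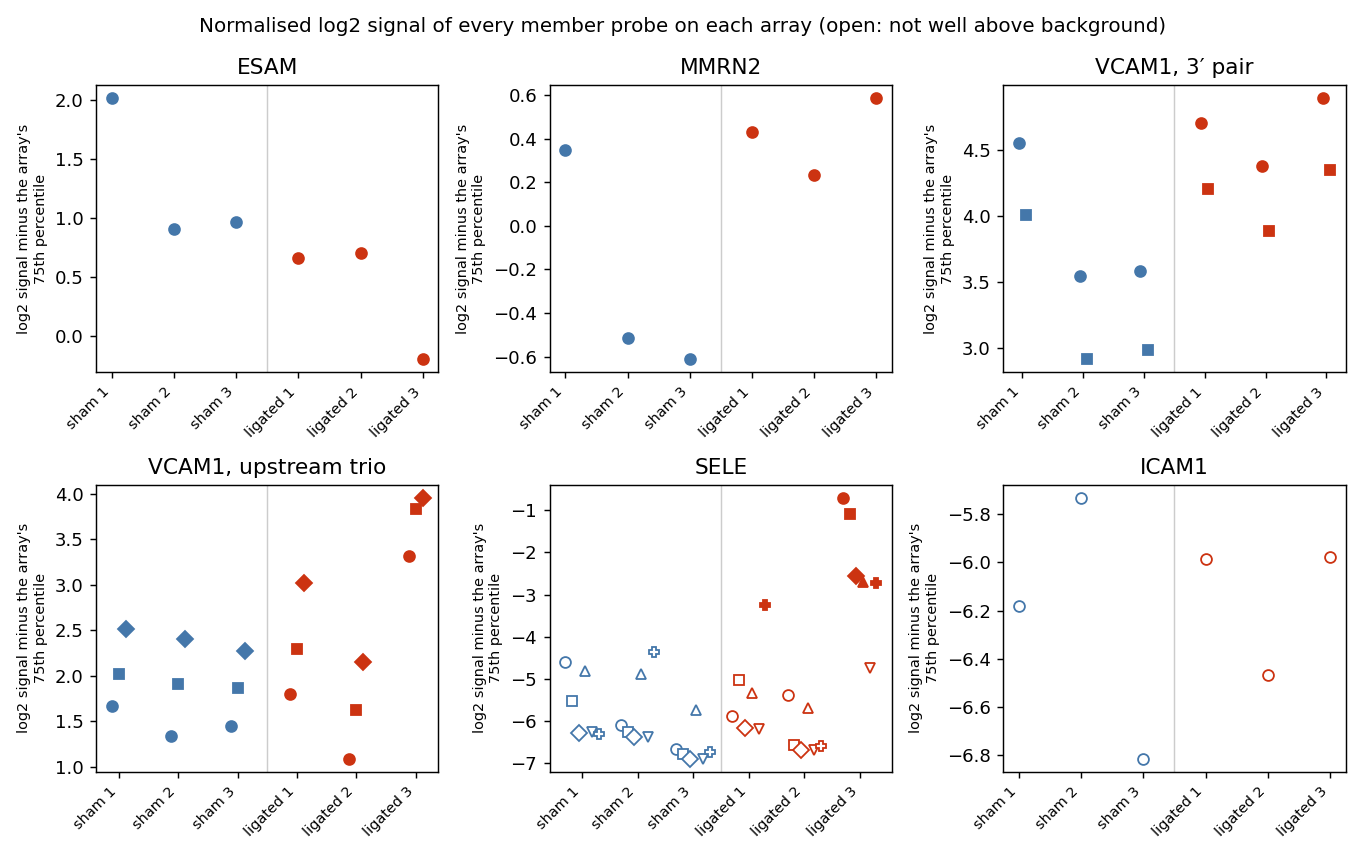
Normalised log2 signal (log2 signal minus the array's 75th percentile) of the 14 probes on the 3 sham arrays (blue) and the 3 ligated arrays (red), with 1 symbol per probe and a vertical scale of its own in each panel. Filled symbols were well above background and open ones were not. ESAM is the only tested probe of the set whose groups do not overlap, against 34.7% of all tested probes on the array. SELE is filled on ligated 3 (5 probes) and ligated 1 (1 probe).

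ESAM, the junction protein of the endothelium and platelets, read lower after ligation without passing the test. Its normalised log2 signal was 2.02, 0.91 and 0.97 on sham 1, 2 and 3 and 0.66, 0.70 and -0.19 on ligated 1, 2 and 3. All ligated arrays lay below all sham arrays, with sham 1 the highest and ligated 3 the lowest. Groups did not overlap for 34.7% of all tested probes (17.6% higher and 17.1% lower in ligated). The means were 1.30 ± 0.62 for sham and 0.39 ± 0.51 for ligated (SD, n = 3 each). The difference was -0.91 in log2 (SE 0.40, 95% interval -1.85 to 0.04), with an adjusted p of 0.198 in limma. Without sham 1 it was -0.55, with array weights -0.50, and without ligated 3 -0.62.

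MMRN2, the endothelial matrix protein, read higher on the ligated arrays, also without passing. Its normalised log2 signal was 0.35, -0.51 and -0.61 on the sham arrays against 0.43, 0.24 and 0.59 on the ligated arrays. Sham 1 lay among the ligated values, while sham 2 and sham 3 were below all of them. The means were -0.26 ± 0.53 and 0.42 ± 0.18 (SD, n = 3 each), a difference of 0.68 in log2 (SE 0.30, 95% interval -0.04 to 1.39) with an adjusted p of 0.202 in limma. When sham 1 was left out the difference was 0.98 and the adjusted p 0.0495, which is past the threshold, whereas with sham 2 and sham 3 averaged they were 0.52 and 0.449. With normexp background correction the difference was 0.20, or 0.43 when spots of high background were left out first. The receptor CLEC14A, measured by its own probe, had a normalised log2 signal of 0.39, -0.02 and 0.09 on the sham arrays against -0.24, -1.17 and -0.26 on the ligated arrays. Its ligated arrays were thus all below its sham arrays, as for 17.1% of all tested probes. The difference of -0.71 had an adjusted p of 0.191 in limma.

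VCAM1, the integrin ligand that holds leukocytes and is also made by smooth muscle, was covered by 5 probes in separate stretches of its locus. A pair lies at chr13:63441379-63441438 and chr13:63441439-63441498. The other 3 lie 4134 bases away, on the 5′ side because the gene is on the minus strand, at chr13:63445632-63445691, chr13:63445709-63445768 and chr13:63445749-63445808. The last 2 of these overlap by the 20 bases shown in capitals, so the probes are not independent readings.

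The 3′ probe A_04_P002586, which stands for the gene because its mean signal was the highest, read 4.56, 3.55 and 3.58 on the sham arrays against 4.70, 4.38 and 4.89 on the ligated arrays in normalised log2 signal. Sham 1 lay between ligated 1 and ligated 2, and sham 2 and sham 3 were about 1 log2 unit lower. The difference was 0.76 in log2 (SE 0.33, 95% interval -0.02 to 1.54) with an adjusted p of 0.190 in limma. Its neighbour A_04_P002587 read 4.01, 2.91 and 2.98 against 4.21, 3.88 and 4.35. This was the probe with an unadjusted p under 0.05 (0.0421), with a difference of 0.85 (SE 0.34, 95% interval 0.04 to 1.65) and an adjusted p of 0.166 in limma. For A_04_P002586 the difference was 1.09 and the adjusted p 0.0482 without sham 1, past the threshold, and 0.60 and 0.427 with sham 2 and sham 3 averaged. A_04_P002587 was likewise past the threshold without sham 1, at 1.20 and 0.0373.

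The upstream VCAM1 probes ranked the arrays in another order. A_04_P004401 read 1.67, 1.34 and 1.45 on the sham arrays against 1.80, 1.09 and 3.32 on the ligated arrays in normalised log2 signal. A_04_P004402 read 2.02, 1.91 and 1.87 against 2.30, 1.62 and 3.84. A_04_P004403 read 2.52, 2.40 and 2.27 against 3.02, 2.15 and 3.96. On all 3 probes ligated 3 was the highest array and ligated 2 the lowest, so the ligated values spanned the sham values. Their differences were 0.58 (SE 0.54), 0.65 (SE 0.54) and 0.64 (SE 0.44) in log2, with adjusted p of 0.516, 0.461 and 0.382 in limma. These values rest on single arrays: without ligated 3 they were -0.04, 0.03 and 0.19, and without ligated 2 they were 1.07, 1.14 and 1.09, past the threshold in neither case.

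Within a stretch the VCAM1 probes moved together over the 6 arrays (Pearson r 0.998 for the 3′ pair, and at least 0.972 among the upstream probes), while the means of the stretches had an r of 0.614. These correlations are a description, since the probes share arrays and scaling. Ligated 3 exceeded the mean of ligated 1 and 2 by 0.30 to 0.35 in log2 on the 3′ pair and by 1.37 to 1.88 on the upstream probes. Sham 1 exceeded the mean of sham 2 and 3 by 0.99 and 1.06 on the 3′ pair and by 0.13 to 0.28 on the upstream probes. The upstream mean minus the 3′ mean on the same array was -2.21, -1.35 and -1.42 in sham and -2.08, -2.51 and -0.92 in ligated. The size of this contrast depends on the probes, so only its change is read. It differed by -0.18 between the groups (exact two-sided permutation test, p = 0.9, n = 3 against 3, where the smallest p possible is 0.1).

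**Figure D2:**
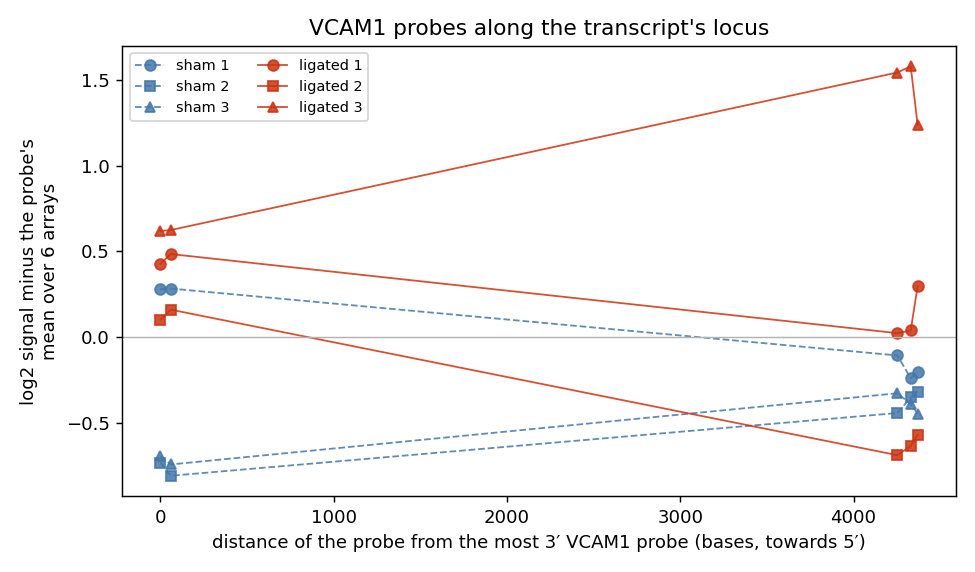
Log2 signal of the 5 VCAM1 probes on each array, with each probe's mean over the 6 arrays subtracted, against the distance in bases from the most 3′ probe towards the 5′ side. Ligated 3 stands further from the other arrays on the upstream probes, and sham 1 lies nearer the ligated arrays on the 3′ pair.

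SELE, the endothelial selectin, was read mainly on 1 ligated array, and none of its 6 probes was well above background in sham. A_04_P002441 (chr13:21851839-21851898) had a normalised log2 signal of -4.60, -6.08 and -6.65 on the sham arrays against -5.87, -5.38 and -0.70 on the ligated arrays. A_04_P002442 (chr13:21851963-21852022) gave -5.53, -6.26 and -6.78 against -5.03, -6.57 and -1.08. Both were well above background on ligated 3 alone, where the signal was at least 9.15-fold and 7.03-fold that of any other array. Each bound sets ligated 3 against the higher of the probe's own signal and the lowest signal well above background on the other array. A_04_P012611 and A_04_P012612 were likewise read on ligated 3 alone, at -2.55 and -2.69, with bounds of 2.54-fold and 2.30-fold. For A_04_P012612 the files place only 37 of its 60 bases, inside the stretch of A_04_P002441. The sequences of these probes share no such stretch, so they do not bear out this placement.

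The most 5′ SELE probe, A_04_P066017 (chr13:21855112-21855171), was well above background on ligated 1 (-3.25) and ligated 3 (-2.73). It was at -6.59 on ligated 2 and at -6.30, -4.36 and -6.73 on the sham arrays, below detection on each. The probe described as endothelial leukocyte adhesion molecule I (chr13:21852203-21852262) was not well above background on any array, and its highest value, -4.73, was again on ligated 3. Lowest signals well above background were between -4.58 and -3.89 in normalised log2. No group was read in full, so no difference between the groups was tested for SELE.

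ICAM1, the ligand of the β2 integrins, was not well above background on any of the 6 arrays with its only probe. The readings were -6.18, -5.73 and -6.81 on the sham arrays against -5.99, -6.47 and -5.98 on the ligated arrays in normalised log2 signal. All lie below the lowest signal well above background on their array, so neither a level nor a fold follows from them, and a low signal from this probe does not show that the transcript was low.

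A further probe, A_04_P056772 at chr19:49242104-49242163 on the minus strand, is outside the set because its description reads Fc receptor-like 4-like. The NCBI gene number that the file gives for it is named PECAM1 in the later gene table, and 8 of the 9 named genes within 500 kb of it, such as DDX5 and SMURF2, neighbour PECAM1 there. Its normalised log2 signal was 1.55, 0.61 and 0.62 on the sham arrays against 1.76, 0.92 and 2.01 on the ligated arrays. Sham 1 fell between ligated 1 and ligated 2, as on the 3′ VCAM1 probes. The difference was 0.64 in log2 (SE 0.39, 95% interval -0.29 to 1.56) with an adjusted p of 0.332 in limma, and it ran from 0.42 without ligated 3 to 0.96 without ligated 2, past the threshold in no such fit. Whichever gene it reads, the probe did not pass.

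**Figure D3:**
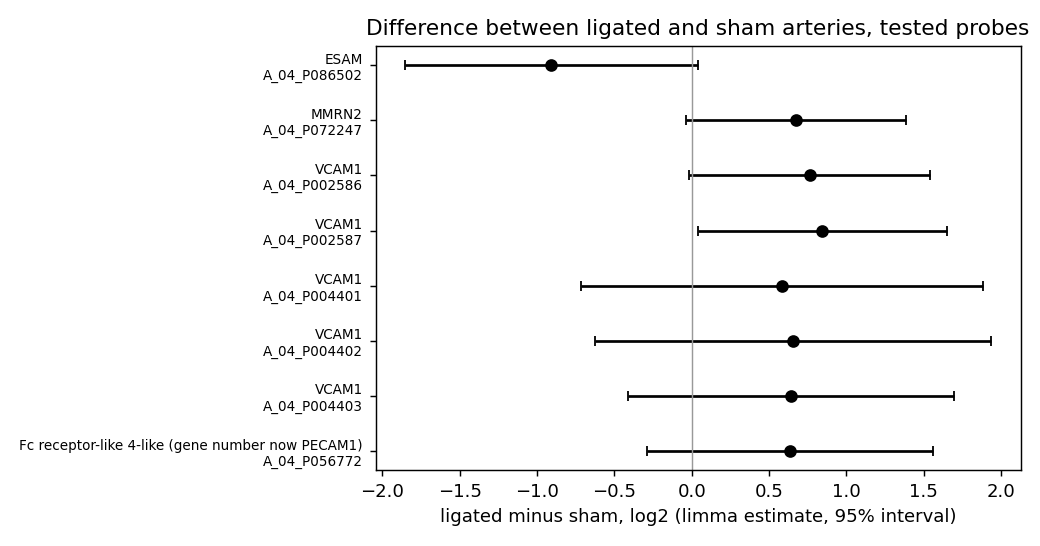
Ligated minus sham difference in log2 signal for the 7 tested probes and for the probe described as Fc receptor-like 4-like, with 95% intervals from limma (3 arrays against 3). The interval of 1 VCAM1 probe leaves out 0, and no probe passed after adjustment over all 27384 tested probes.

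The genes whose pattern over the 6 arrays was most like that of each member were taken from all tested genes by Pearson's r, as a description of 6 shared arrays. For ESAM these were HARS2 (r = 0.998), ZBTB45 (0.992) and MYH11 (0.989), the smooth muscle myosin heavy chain. MYH11 read 7.64, 6.63 and 6.44 on the sham arrays against 6.02, 6.05 and 5.16 on the ligated arrays in normalised log2 signal, with the same highest and lowest array as ESAM. For MMRN2 they were KRT84 (0.996), VCAM1 (0.994) and RIN3 (0.991), and for VCAM1 KRT84 (0.997), MMRN2 (0.994) and CD34 (0.990). ESAM had an r of -0.23 with MMRN2 and -0.26 with VCAM1. CD34, an endothelial and progenitor cell surface protein, read -0.12, -1.28 and -1.45 in sham and 0.19, -0.43 and 0.52 in ligated, with an adjusted p of 0.174 in limma for a difference of 1.04.

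Other endothelial markers were above background in these smooth muscle preparations. Of 26 further endothelial genes, 13 had a probe and 11 were tested, all well above background on all 6 arrays. Von Willebrand factor, VWF, read 6.38, 5.48 and 5.36 on the sham arrays against 5.88, 5.61 and 6.98 on the ligated arrays. The summed linear signal of the 11, in units of each array's 75th percentile, was 201, 118 and 114 in sham and 150, 124 and 299 in ligated. Most of this sum came from the genes of highest signal, VWF and PODXL, so it says little about the others. PODXL read 6.45, 5.86 and 5.84 on the sham arrays against 6.09, 5.52 and 7.16 on the ligated arrays. Sham 1 was the highest sham array for 11 of 11 genes (49.4% of all tested genes), by a median of 0.96 in log2. This was not particular to endothelial genes. Of the 9 tested smooth muscle markers, 8 were also highest on sham 1 among the sham arrays, with a median of 0.49. Ligated 3 was the highest ligated array for 8 of 11 (36.4% of all tested genes). Sham 1 stood above sham 2 and 3 in ESAM (by 1.08), MMRN2 (by 0.91) and the 3′ VCAM1 pair as well. The part of the endothelial and smooth muscle signals in these differences was not tested.

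Of the 11 endothelial genes, 1 rose and 0 fell, beside 8.92% of all 7531 tested genes (6.24% higher, 2.68% lower). The list's median difference was 0.21 in log2, against 0.01 over all tested genes. The riser was ESM1, a secreted proteoglycan of activated endothelium. It read -0.69, -1.51 and -1.31 on the sham arrays against 2.35, 3.84 and 2.04 on the ligated arrays, a difference of 3.92 (SE 0.50) with an adjusted p of 0.00898 in limma, or 0.0423 with sham 2 and sham 3 averaged. All ligated arrays were above all sham arrays, as for 17.6% of all tested probes, and ligated 2 rather than ligated 3 was the highest.

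**Figure D4:**
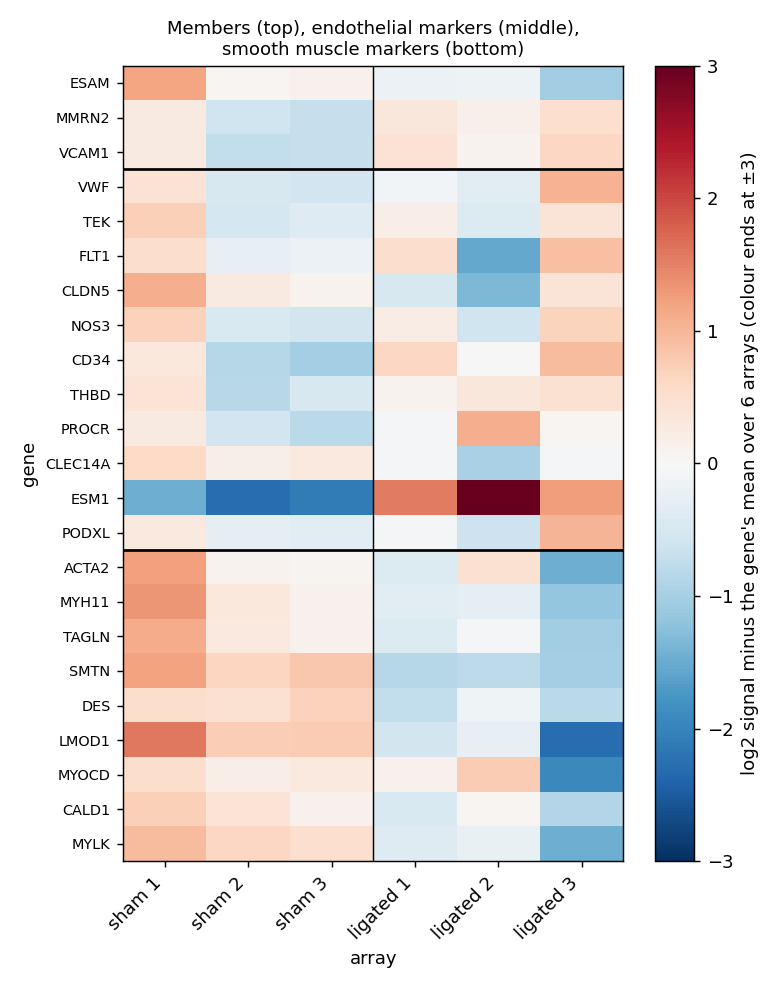
Log2 signal of each gene minus its mean over the 6 arrays, for ESAM, MMRN2 and VCAM1 (top), 11 other endothelial markers (middle) and 9 smooth muscle markers (bottom). The colour scale ends at 3 log2 units on both sides. Sham 1 is the highest sham array in every endothelial row and in 8 of the 9 smooth muscle rows. ESAM shares with MYH11 a high sham 1 and a low ligated 3.

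Defining markers of the labelled cell type, smooth muscle, were read on all 6 arrays for the 9 tested of 10 listed, ACTA2, TAGLN and MYH11 among them. Of these 9, 0 rose and 2 fell (SMTN and DES), with a median difference of -1.11 in log2. Among all tested genes 6.24% rose and 2.68% fell. SMTN, smoothelin, a contractile cell protein, differed by -1.77 with an adjusted p of 0.00794, and DES, desmin, by -1.11 with 0.0399 in limma. The DES call ended with sham 2 and sham 3 averaged (adjusted p = 0.136), and also without any 1 array other than ligated 2 (up to 0.156). Their summed signal ran from 1317 to 2142 in sham and from 487 to 1096 in ligated, and its part in the ESAM difference was not tested.

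Markers of other cells also differed between arrays. Of 7 tested leukocyte markers 0 rose and 0 fell. Their sum was 7.72, 21.7 and 18.6 in sham and 7.83, 12.4 and 28.0 in ligated, so that it was highest on ligated 3, the array on which SELE was read. Erythroid markers summed to 189, 389 and 372 in sham and to 28.5, 31.4 and 668 in ligated, again highest on ligated 3. Platelet markers, 2 tested of 6 listed, summed to 0.716, 0.376 and 0.273 in sham and 0.268, 0.261 and 0.810 in ligated. Their part in the SELE and upstream VCAM1 signals of ligated 3 was not tested. Of 4 tested fibroblast markers 2 rose, beside 6.24% of all tested genes. These were LUM and COL1A1, by 2.38 and 3.02 in log2 (adjusted p of 0.00233 and 0.00374 in limma). The summed signal of the 4 was 94.7 to 110 in sham and 188 to 273 in ligated.

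A list of cytokines, chemokines, receptors and NF-κB factors around the induction of adhesion molecules gave 3 calls. Of its 19 genes 13 were tested, and 3 rose and 0 fell, beside 6.24% and 2.68% of all tested genes. The median difference was 0.76 in log2. CXCL8, a neutrophil-attracting chemokine and not itself an inducer of these molecules, differed by 2.57 (SE 0.28, adjusted p of 0.00583 in limma), IL1A by 2.46 (0.0140) and IL1B by 1.84 (0.0168). IL1A and IL1B encode cytokines of the interleukin 1 family, which can induce VCAM1 and E-selectin. IL1B read 5.61, 6.43 and 6.35 on the sham arrays against 7.64, 8.25 and 8.02 on the ligated arrays. The part of interleukin 1 in the VCAM1 and SELE signals was not tested. With sham 2 and sham 3 averaged 1 of the 13 remained called, CXCL8 (adjusted p = 0.0286), beside 2.46% of all tested genes. IL1A and IL1B then stood at 0.0508 and 0.0540. Leaving out sham 3 or ligated 2 also ended the IL1A and IL1B calls, and leaving out sham 2 that of IL1B, with adjusted p of up to 0.0580 and 0.0667.

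Junction and adhesion molecules of the vessel wall gave 3 rises and 0 falls among 11 tested of 20 listed, with a median of 0.34 in log2. Over all tested genes the shares were 6.24% and 2.68%. CDH11, a mesenchymal cadherin, read 0.90, 1.03 and 1.05 on the sham arrays against 2.30, 2.23 and 1.82 on the ligated arrays. The difference of 1.13 (SE 0.20) had an adjusted p of 0.0241 in limma. CD44, the hyaluronan receptor, differed by 1.41 (SE 0.32, adjusted p of 0.0467). CDH2, N-cadherin, was read on all 3 ligated and on 0 sham arrays, at least 1.94-fold higher after ligation (adjusted p of 0.0434 in limma). CDH2 entered the test through its ligated arrays alone, and the sham signals behind this p were below detection. With the filter on all 6 arrays the list gave 2 rises among 10 tested genes. All 3 calls ended with sham 2 and sham 3 averaged, at 0.0982 for CDH11, 0.135 for CD44 and 0.146 for CDH2, and also without any 1 of sham 2, sham 3, ligated 1 and ligated 2. The CD44 call ended without sham 1 too, and the CDH2 call without ligated 3. With 1 array left out the adjusted p reached 0.103 for CDH11, 0.141 for CD44 and 0.151 for CDH2.

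The integrins that bind ICAM1 and VCAM1 gave no call in the main fit. Of 9 leukocyte integrin genes 5 were tested and 0 rose or fell in limma, with 1 at an unadjusted p under 0.05, against 2090 of all 7531 tested genes. The list gave 1 rise with the filter on all 6 arrays, with array weights, and with the mean of a gene's tested probes. ITGAM, the α chain of the ICAM1-binding integrin Mac-1, read -3.08, -2.38 and -2.72 on the sham arrays against -1.75, -1.89 and -1.39 on the ligated arrays, a difference of 1.05 with an adjusted p of 0.0546. ITGB1, the β chain of the VCAM1-binding integrin, differed by -0.32 (adjusted p = 0.409 in limma). It read 9.04, 8.81 and 8.73 in sham and 8.53, 8.87 and 8.21 in ligated. At that level in smooth muscle preparations its signal is not read as that of leukocytes. Of the selectins and their ligands 3 of 11 were tested, and 0 rose and 1 fell, beside 6.24% and 2.68% of all tested genes. GCNT1, an enzyme that builds the sugar branch selectins bind, read 0.65, 0.26 and 0.38 in sham and -2.28, -3.05 and -1.43 in ligated, a difference of -2.69 (SE 0.41, adjusted p of 0.0148 in limma). It stood at 0.0580 with sham 2 and sham 3 averaged, and at up to 0.0641 without sham 2, sham 3 or ligated 1.

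Of 10 tested flow-responsive endothelial genes, from 14 listed, 0 rose or fell in limma and 3 had an unadjusted p under 0.05 (2090 of all 7531 tested genes), with a median difference of 0.16 in log2. ANGPT2, a ligand of the endothelial receptor TEK, read 1.90, 2.20 and 2.15 on the sham arrays against 0.90, 0.72 and 1.58 on the ligated arrays. The difference was -1.02 with an adjusted p of 0.0694 in limma, which ran from 0.0287 to 0.212 with 1 array left out. The list gave 1 fall with median centring, and 1 rise and 1 fall with array weights. CYP1B1, a cytochrome P450 induced by laminar flow, differed by 1.54 with an adjusted p of 0.109 in limma. Its ligated values of 2.29, 0.27 and 0.80 were all above the sham values of -0.53, -0.29 and -0.42, as for 17.6% of all tested probes. NOS3, endothelial nitric oxide synthase, read 2.10, 0.95 and 0.85 in sham and 1.63, 0.81 and 2.06 in ligated, so that its groups overlapped.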

How the data were processed

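The 6 one-colour arrays, 3 sham and 3 ligated, were grouped by their labels. Agilent Feature Extraction 10.7 is named in the submitters' processing notes. Per the file headers, the processed signal is a background-subtracted and detrended intensity, not scaled between arrays, and the mean spot signal and local background used by 1 alternative are intensity values without processing. Per the file headers, the well above background, saturation and outlier marks are flags (kind other, 0 or 1). The authors' deposited value table is on a log2 scale, with equal column medians of 5.05 and r of at least 0.999 with the log2 processed signal, with its scaling step not given in the sources used here.

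Outlier spots (2 to 19 per array) were left out, spots of a probe averaged, and each array's 75th percentile subtracted. No spot was saturated, and 29 probes lost a value to an outlier mark and were not tested. Ligated and sham were compared in limma 3.58.1 (R 4.3.3), after a run on simulated data. Probes were named through gene number, accession or name in the mOryCun1.1 table (22419 with 1 symbol, 67 with several, 21117 with none), and the tested probe with the highest mean stands for a gene. With 6 arrays, the number of arrays limits the precision. The deviations of same-numbered arrays from their group means had r of 0.43, -0.57 and 0.58. These values depend on each other and cannot show whether the numbers pair arrays. The main fit used no pairing.

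Named are every member and probe, up to 3 passing genes per list with the smallest p (otherwise up to 2 as values), cell type genes by level, and the 3 genes most like each member. NOS3 and CLEC14A are listed cell type genes given by level. Members and lists were chosen with earlier results of these data known. Alternatives changed the background correction, scaling, filter, variance model, array weights, blocks, probe rule and arrays used.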

Additional observations from a re-analysis of the deposited data

How the results depend on the processing

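The count of called probes (2291) was 0 with normexp background correction (612 at an unadjusted p under 0.05 in limma), 1524 with no filter on dim probes, 6097 with array weights, 1295 with the replicate block, 552 with scan day as a block and 595 with sham 2 and sham 3 averaged. It ran from 552 to 2267 when 1 array was left out. Sham 3 alone was scanned on another day, so the scan-day block is the same fit as leaving out sham 3. Of the 3 tested member genes 0 were called, but 2 with array weights and 2 without sham 1, so leaving out 1 array gave 0 to 2. With array weights MMRN2 differed by 0.86 (adjusted p = 0.0396) and VCAM1 by 0.95 (0.0386). The range over arrays left out was 0.50 to 0.98 for MMRN2, 0.59 to 1.09 for the VCAM1 probe A_04_P002586 and -1.10 to -0.55 for ESAM, which was called under no alternative run. The 8 calls among the 50 tested genes of the 6 context lists became 0 with normexp, 5 with no filter, 19 with array weights, 2 with scan day as a block and 2 with sham 2 and sham 3 averaged, and 2 to 8 without 1 array. Of all tested genes 8.92% were called in the main fit and 2.46% with sham 2 and sham 3 averaged. When spots with a background over 10 times the array's median were left out first, normexp gave 3061 called probes and 8 context-list calls. The cause of these shifts was not tested. With the replicate block, adjusted p was 0.209 for VCAM1, 0.245 for MMRN2 and 0.166 for ESAM. Over all 5 VCAM1 probes the log2 difference ran from -0.04 (A_04_P004401 without ligated 3, where the direction turned) to 1.20 (A_04_P002587 without sham 1). The differences of ESAM, MMRN2 and A_04_P002586 kept their direction under the alternatives run. Slide could not be a block because each slide holds 1 group. With no filter on dim probes the fit gave differences of 0.58 to 1.96 for the 6 SELE probes (adjusted p of 0.456 to 0.712) and 0.10 for ICAM1 (0.864), but these are fitted to signals mostly not well above background and are not read as changes.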
